A study of Homo sapiens with 3 samples.

Results

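The 10 genes examined here belong to the YAP and TEAD arm of the Hippo pathway: the coactivators YAP1 and WWTR1, the transcription factors TEAD1, TEAD3 and TEAD4, and the target genes CCN1, CCN2, ANKRD1, LATS2 and AMOTL2. They were chosen by gene symbol, with earlier results of these data known, and all 10 were found among the 26108 genes of the table, 1 row each. All 10 also passed the filter on low values, a mean of at least 0.5 FPKM over the libraries, which 12422 of 24254 gene symbols passed. The mRNA came from LX-2, an established human hepatic stellate cell line, which received vehicle, 50 ng/mL rhFGF19 (the lower dose) or 100 ng/mL rhFGF19 (the higher dose), recombinant human FGF19, and carries no genetic change named in the labels. With 1 library per condition, no comparison had a replicate check, no test was possible and every fold change is a difference between single libraries. The series gives 24 h of stimulation, whereas the descriptions of the rhFGF19 samples give 72 h and 73 h and exchange their doses. The doses used here follow the sample titles.

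In the Hippo pathway, a cascade of kinases ending in LATS1 and LATS2 phosphorylates YAP1 and WWTR1 (also named TAZ) and so keeps them in the cytoplasm. When the cascade is off, both coactivators enter the nucleus and bind TEAD factors, which carry the DNA-binding domain that they lack. LATS2 and AMOTL2 are targets that in turn restrain YAP1. The pathway responds to matrix stiffness and cell density, and in hepatic stellate cells YAP1 is known for its part in activation and scarring. Its control acts largely on the YAP1 and WWTR1 proteins, which mRNA levels do not measure.

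TEAD factors bind the sequence GGAATG or its reverse complement CATTCC. RefSeq promoter windows, 250 bases before to 50 bases after a transcription start on GRCh38.p14, were found for 7 of the 10 genes, in 9 windows. There was none for TEAD1, TEAD4 and CCN1. GGAATG was searched on both strands, and no match overlapped that of another motif searched. It was present in 5 of the 9 windows, those of YAP1, CCN2, ANKRD1 and LATS2 and 1 of the pair of AMOTL2, and in 14% of all 35116 windows. The CCN2 window held 3 matches, a number reached by 0.128% of all windows, and that of ANKRD1 held 2, which 1.37% reached or exceeded. Both genes are in the set as targets, so these shares are a description and not a test. In LATS2 the match began 10 bases into the transcript. The 4 windows with a match before the start are printed up to the start, 5′ to 3′ on the gene's own strand, with the TEAD motif in capitals, because they show where the motif lies and that it is repeated in CCN2 and ANKRD1. They are CCN2 at chr6:131951373-131951622 on the minus strand, ANKRD1 at chr10:90921088-90921337 on the minus strand, AMOTL2 at chr3:134374448-134374697 on the minus strand and YAP1 at chr11:102110197-102110446 on the plus strand.
CCN2: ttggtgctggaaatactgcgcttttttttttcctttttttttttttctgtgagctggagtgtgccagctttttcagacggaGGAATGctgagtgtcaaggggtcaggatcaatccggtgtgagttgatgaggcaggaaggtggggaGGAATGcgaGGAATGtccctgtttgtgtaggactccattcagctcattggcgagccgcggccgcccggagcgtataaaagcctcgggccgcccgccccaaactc
ANKRD1: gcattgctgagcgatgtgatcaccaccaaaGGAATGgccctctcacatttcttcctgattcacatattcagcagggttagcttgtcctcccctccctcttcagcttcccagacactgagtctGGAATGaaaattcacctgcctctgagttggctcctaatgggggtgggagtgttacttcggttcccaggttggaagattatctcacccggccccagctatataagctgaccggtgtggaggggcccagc
AMOTL2: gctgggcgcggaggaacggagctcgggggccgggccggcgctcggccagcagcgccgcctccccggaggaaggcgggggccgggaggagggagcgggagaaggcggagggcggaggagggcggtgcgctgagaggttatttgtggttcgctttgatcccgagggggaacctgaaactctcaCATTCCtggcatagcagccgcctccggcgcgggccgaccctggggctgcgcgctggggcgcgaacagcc
YAP1: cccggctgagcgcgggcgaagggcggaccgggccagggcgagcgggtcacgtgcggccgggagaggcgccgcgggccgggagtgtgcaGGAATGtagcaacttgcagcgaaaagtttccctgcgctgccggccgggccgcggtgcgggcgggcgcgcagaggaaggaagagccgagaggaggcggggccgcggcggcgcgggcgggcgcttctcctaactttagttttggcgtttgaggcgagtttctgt

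Counted in bases from the start, the CCN2 matches began at -169, -104 and -95, all on the gene's strand, and a TATAAA motif, found in 11.5% of all windows, began at -32. In ANKRD1 they began at -220 and -128, and a TGANTCA motif, to which AP-1 factors bind and which 7.71% of all windows hold, began at -195. The match in AMOTL2 lay on the opposite strand at -69, and that in YAP1 on the gene's strand at -162. The deposited AMOTL2 gene, on the minus strand, extends to 134374594, past the RefSeq start of this window. It therefore takes in the AMOTL2 match, which lies before the RefSeq start only. No window of these genes held the CArG box of the serum response factor, which 1.29% of all windows hold. These are matches of letters and not measured binding sites.

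**Figure D1:**
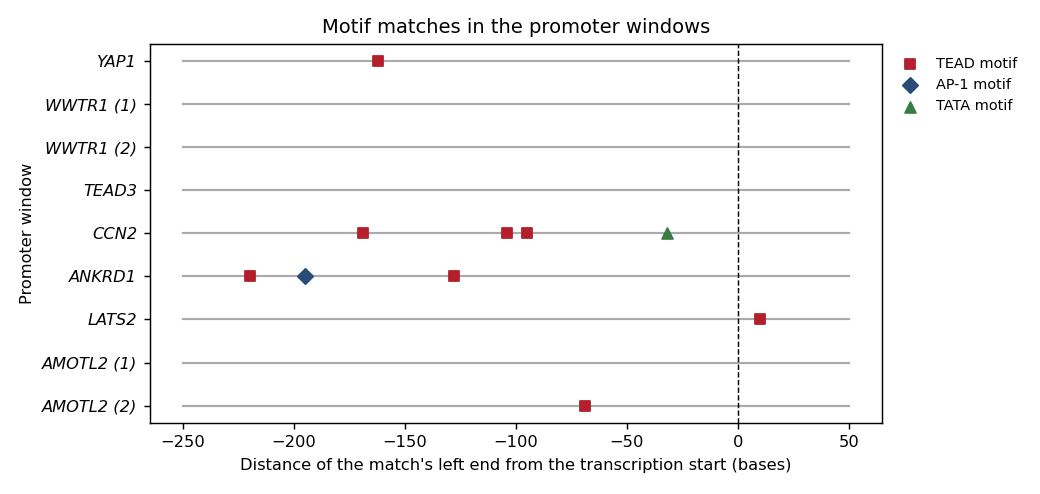
Motif matches in the 9 promoter windows of 7 genes, with the distance of the left end of each match from the transcription start in bases on the horizontal axis and 1 line per window (WWTR1 and AMOTL2 have a pair each). Squares mark the TEAD motif, the diamond the AP-1 motif and the triangle the TATA motif, and the CCN2 line carries 3 squares, at -169, -104 and -95.

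The values are FPKM, fragment numbers scaled to transcript length and to the mapped fragments of the library, computed by the authors. They summed to 302243 in the vehicle library and to 276690 and 281606 at 50 and 100 ng/mL, and the read depth behind them is unknown. Fold changes were computed as differences of log2(FPKM + 0.1), which understates those of low genes. The 12422 symbols had a median of 0.62 on this scale at both doses, and the SD of the difference between the rhFGF19 libraries was 0.32. The latter is a spread over genes between 2 doses and not a replicate error. Of 12 stellate cell markers, 11 were in the table and 8 passed the filter, with a summed level of 882 FPKM in vehicle and 1041 in each rhFGF19 library. Of the 8, 6 were higher than vehicle at both doses. COL3A1 and LOX were the 2 past 2-fold (25%, against 39.5% and 38.6% of all symbols). In the order vehicle, lower and higher dose, VIM was listed at 439, 654 and 649 FPKM and COL1A1 at 78.4, 108 and 104. COL3A1 was listed at 1.79, 4.15 and 4.3 FPKM and LOX at 1.9, 4.33 and 4.39, and PDGFRB and SPARC were also higher. In the other direction, TIMP1 was listed at 308, 184 and 193 FPKM and ACTA2 at 8.55, 8.01 and 7.74. LRAT was listed at 0 in all libraries, DES at 0 to 0.08 and COL1A2 at 0.03 to 0.14. The summed FPKM of the markers of other cell types lay between 0.99 and 1.26 for epithelial cells, 3.41 and 3.51 for endothelial cells, 11.3 and 12.5 for hepatocytes and 39.8 and 47.7 for blood cells, nearly all of the last in CD68, and their part in the results was not tested. In bulk mRNA, fewer cells with a transcript and less of it per cell cannot be told apart.

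YAP1, WWTR1, TEAD1 and the 5 targets had higher deposited values in both rhFGF19 libraries than in vehicle, and TEAD3 and TEAD4 lower ones. The sign of the fold change depended on the processing for 6 of the 10 genes: WWTR1 (-0.021 at the lower dose) and TEAD4 (0.0088 at the higher dose) changed sign with quantile normalization, and YAP1, WWTR1, TEAD1, TEAD3, TEAD4 and ANKRD1 did so under removal of at least 1 trend on GC content or on GC content and length. A sign after trend removal is relative to genes of similar GC content or length, and not a direction against vehicle alone. At the lower dose 5 of the 10 genes exceeded vehicle more than 2-fold, against 39.5% of all symbols, and the same 5 did at the higher dose, against 38.6%. These were YAP1, TEAD1, CCN2, ANKRD1 and LATS2, of which YAP1, TEAD1 and ANKRD1 lay between -0.23 and 0.0048 once trends on GC content and length were both removed. None was more than 2-fold lower, as were 1.75% of all symbols at the lower and 1.47% at the higher dose. The median log2 fold change of the 10 genes was 0.99 at either dose, and single values ran from -0.34 to 1.45. With these settings the share past 2-fold was not far from that of all symbols, and both comparisons use the same vehicle library. The balance of directions over all symbols depended on the scaling: at 50 ng/mL 4903 symbols were higher and 217 lower as deposited, 3706 and 802 with the median ratio set to 0 over genes that reach 1 FPKM in every library, and 1142 and 1223 with quantile normalization, where CCN1 and CCN2 were the genes past 2-fold among the 10, both higher (1.08 and 1.297).

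**Figure D2:**
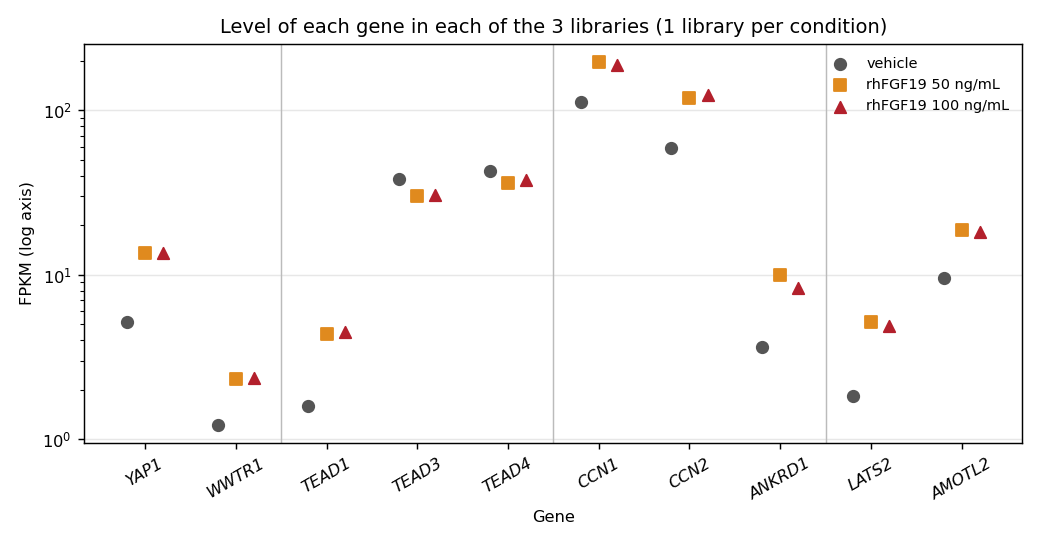
FPKM of the 10 genes on a log axis in the vehicle (circles), 50 ng/mL (squares) and 100 ng/mL (triangles) libraries, 1 library each, grouped by vertical lines into coactivators, TEAD factors, and targets, of which LATS2 and AMOTL2 also restrain YAP1. For 8 genes the circle lies below both other symbols, and for TEAD3 and TEAD4 above them.

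The coactivators were low compared with the summed level of TEAD1 to TEAD4. Gene coordinates are given as deposited, on GRCh38. YAP1 (ENSG00000137693, chromosome 11 from 102110447 to 102233424) was listed at 5.15 FPKM in vehicle, 13.6 at the lower and 13.6 at the higher dose. Both rhFGF19 libraries thus held about the same level, and the log2 fold change was 1.38 in each. WWTR1 (ENSG00000018408, chromosome 3 from 149517235 to 149736714) had the lowest level of the 10 genes in every library, with 1.22, 2.32 and 2.36 FPKM in vehicle, 50 and 100 ng/mL. At 0.87 and 0.90 on the log2 scale, it stayed under 2-fold. In FPKM, YAP1 was 4.22 times WWTR1 in vehicle, 5.87 times at the lower and 5.76 times at the higher dose. FPKM is scaled to length but not to GC content, and the transcripts of YAP1 have a GC content of 43.5% and those of WWTR1 53.5%. The trend on GC content described further on therefore runs through this ratio. It also runs through the ratios of CCN1 to CCN2, LATS2 to LATS1 and AMOTL2 to AMOTL1 given below. The exons of both genes overlap those of a gene on the opposite strand in GENCODE v29, and no source states whether the counting used strand. The partner of WWTR1, WWTR1-AS1, was listed at 0.33, 0.08 and 0.04 FPKM in the order given above, and that of YAP1 has no value here.

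The TEAD factors, which bring YAP1 and WWTR1 to DNA, differed from each other. TEAD1 (ENSG00000187079, chromosome 11 from 12674421 to 12944737) was listed at 1.59 FPKM in vehicle, 4.35 at the lower and 4.46 at the higher dose, log2 fold changes of 1.40 and 1.43. TEAD3 (ENSG00000007866, chromosome 6 from 35473597 to 35497079) was listed at 38.4, 30.3 and 30.4 FPKM, log2 fold changes of -0.34 and -0.34. TEAD4 (ENSG00000197905, chromosome 12 from 2959330 to 3040676) was listed at 42.8, 36.3 and 37.6 FPKM, log2 fold changes of -0.24 and -0.19. The vehicle library was thus the lowest of the 3 for TEAD1 and the highest for TEAD3 and TEAD4. TEAD2, which is no member of the set, was listed at 12.7, 8.50 and 8.48 FPKM. Of the summed FPKM of the 4 TEAD genes, TEAD1 made up 1.66% in vehicle and 5.47% and 5.51% at 50 and 100 ng/mL. TEAD3 and TEAD4 remained the bulk of it, with 40.2% and 44.8% in vehicle and 37.6% and 46.4% at 100 ng/mL. The summed TEAD level was 15.0 times that of YAP1 and WWTR1 in vehicle, 4.99 times at the lower and 5.07 times at the higher dose. Multiplying a library by a constant leaves these shares and ratios as they are, but the trend on GC content described further on runs through them.

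**Figure D3:**
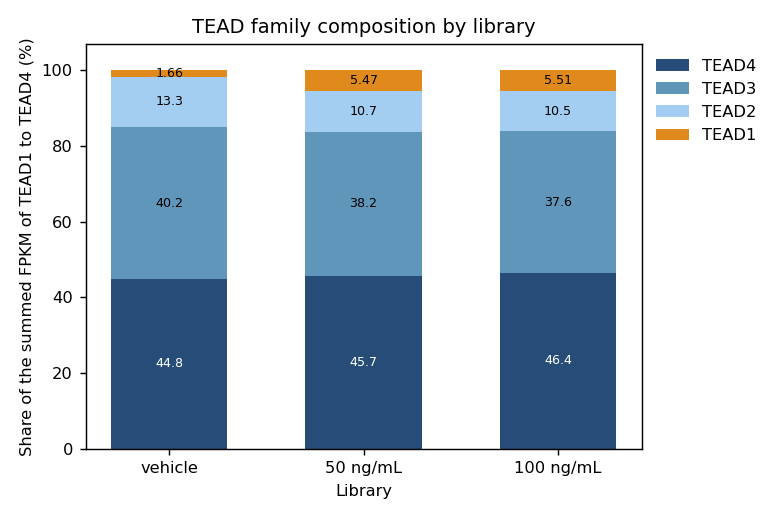
Share of the summed FPKM of TEAD1 to TEAD4 held by each gene, in percent, in 1 vehicle, 1 50 ng/mL and 1 100 ng/mL library (bars, with the share printed in each segment). TEAD1, at the top, holds 1.66% in vehicle and 5.47% and 5.51% in the rhFGF19 libraries.

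The matricellular targets were the most abundant of the 10 genes. CCN1 (ENSG00000142871, chromosome 1 from 85580761 to 85583950), formerly CYR61, encodes a secreted protein that binds integrins. It was listed at 112 FPKM in vehicle, 197 at the lower and 188 at the higher dose, and its log2 fold changes of 0.81 and 0.74 stayed under 2-fold. CCN2 (ENSG00000118523, chromosome 6 from 131948176 to 131951372), formerly CTGF, encodes a secreted protein known as a mediator of fibrosis. It was listed at 58.9 FPKM in vehicle, 120 at the lower and 124 at the higher dose, log2 fold changes of 1.02 and 1.07, which lay just past 2-fold. The library at 50 ng/mL was thus the highest for CCN1 and that at 100 ng/mL for CCN2, and the ratio of CCN1 to CCN2 was 1.91 in vehicle, 1.64 at the lower and 1.52 at the higher dose. The promoter with 3 TEAD motifs printed above is that of CCN2. A gene on the opposite strand whose exons overlap CCN2 was listed at no more than 0.27 FPKM in any library.

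ANKRD1 (ENSG00000148677, chromosome 10 from 90912096 to 90921087), a nuclear and sarcomeric ankyrin repeat protein, was listed at 3.61 FPKM in vehicle, 9.93 at the lower and 8.29 at the higher dose. Its log2 fold changes were 1.43 and 1.18, and of the 10 genes it differed most between the rhFGF19 libraries, by -0.26 at 100 against 50 ng/mL. That difference was smaller than the SD of 0.32 over all symbols. For the other 9 genes the rhFGF19 libraries differed by at most 0.068 in either direction, and none of the 10 was past 2-fold between them, as were 1.64% of all symbols.

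Both targets that restrain YAP1 had higher values in the rhFGF19 libraries than in vehicle. LATS2 (ENSG00000150457, chromosome 13 from 20973036 to 21061586), 1 of the pair of kinases that phosphorylate YAP1 and WWTR1, was listed at 1.82 FPKM in vehicle, 5.14 at the lower and 4.90 at the higher dose. Its log2 fold changes were 1.45, the highest of the 10 genes at 50 ng/mL, and 1.38. Its paralogue LATS1 was listed at 0.51, 1.43 and 1.47 FPKM, so that there was 3.57 times as much LATS2 as LATS1 in vehicle, 3.59 times at the lower and 3.33 times at the higher dose. AMOTL2 (ENSG00000114019, chromosome 3 from 134355874 to 134374594), an angiomotin-like scaffold that binds YAP1 outside the nucleus, was listed at 9.61, 18.8 and 18.2 FPKM, log2 fold changes of 0.96 and 0.92, just under 2-fold. A pseudogene within its exons, RPL39P5, was listed at no more than 0.07 FPKM. AMOTL1, a scaffold of the same family, was listed at 3.83, 9.19 and 9.12 FPKM, and AMOTL2 exceeded it 2.51 times in vehicle and 2.05 and 1.999 times at 50 and 100 ng/mL.

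The order of the levels was the same in the 3 libraries, from CCN1 through CCN2, TEAD4, TEAD3, AMOTL2, YAP1, ANKRD1, LATS2 and TEAD1 to WWTR1. Levels of TEAD4 and TEAD3 lay 0.16 apart on the log2 scale in vehicle and 0.26 and 0.31 apart at 50 and 100 ng/mL, and those of LATS2 and TEAD1 0.19, 0.24 and 0.14 apart. Both gaps were smaller than the SD of 0.32 given above, and those of the other neighbours were larger in every library. That SD describes differences of the same gene between libraries and not gaps between genes within a library. It therefore cannot show which neighbours are in a firm order.

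Over all genes, the fold change was inversely related to transcript GC content, with a Spearman correlation over 12374 symbols of -0.77 at the lower and -0.78 at the higher dose, given as a description because the genes share the same libraries. Of the symbols in the fifth with the lowest GC content, 87.7% were more than 2-fold higher at 50 ng/mL, and of those in the fifth with the highest, 2.22%. The 10 genes spanned this range. TEAD1 had a transcript GC content of 41.9%, ANKRD1 43.3% and YAP1 43.5%, whereas CCN1 had 57.2%, AMOTL2 59.3%, LATS2 59.3%, TEAD3 61.0% and TEAD4 63.1%, each the median over the gene's listed transcripts.

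Set against the loess trend of all symbols, some of the 10 genes lay on it and others above it. YAP1 had a log2 fold change of 1.38 where the trend gave 1.35 at the lower and 1.34 at the higher dose, so that its distance from the trend was 0.030 and 0.048. For TEAD1 the distance was -0.029 and 0.025, for TEAD3 0.037 and 0.024, and for ANKRD1 0.068 and -0.17. The fold changes of YAP1, TEAD1, TEAD3 and ANKRD1 were therefore close to those of genes of similar GC content, whichever their direction.

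LATS2 lay farthest above the trend, with a log2 fold change of 1.45 at 50 ng/mL where the trend gave -0.28, a distance of 1.73, and a distance of 1.65 at 100 ng/mL. AMOTL2 lay 1.24 and 1.18 above it and CCN1 0.93 and 0.85. The distance of CCN2 was 0.45 and 0.51, that of WWTR1 0.58 and 0.61 and that of TEAD4 0.22 and 0.25. LATS2 and AMOTL2 were thus more than 2-fold above the trend at both doses, as were 3.74% of all symbols at the lower and 3.31% at the higher dose. When the GC content of the longest transcript was used in place of the median, a choice made after seeing the data, the distance was 1.003 and 0.95 for LATS2 and 1.14 and 1.08 for AMOTL2, and it dropped to 0.18 and 0.13 for CCN1. WWTR1 then lay 0.54 and 0.51 below the trend (-0.54 and -0.51), since its longest transcript has a GC content of 40.3% against a median of 53.5%. The vehicle library is the only one without rhFGF19, so the source of the trend and rhFGF19 cannot be told apart.

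Other genes of the pathway were listed by role, in lists also chosen with earlier results of these data known. Of 18 kinases and upstream regulators, 16 passed the filter and 12 of these (75%) were more than 2-fold higher at each dose, against 39.5% and 38.6% of all symbols. Their medians were 1.31 and 1.29 on the log2 scale, against 0.62 for all symbols. STK3 and FAT4 did not pass. The median GC content of their transcripts was 45.3%, against 51.2% for all symbols. None of the 16 was more than 2-fold above or below the GC trend at either dose. The largest fold changes were those of FRMD6, a cortical FERM-domain protein, with 5.40, 18.9 and 19.1 FPKM in vehicle, 50 and 100 ng/mL, of MOB1A, a cofactor of the LATS kinases, with 3.53, 11.01 and 10.7 FPKM, and of TAOK3, an upstream kinase, with 0.57, 2.03 and 1.79 FPKM. The smallest were those of TAOK2, with 17.9, 13.8 and 14.8 FPKM, DCHS1, a large cadherin, with 6.04, 5.08 and 4.88 FPKM, and WWC1, also named KIBRA, with 1.83, 3.36 and 3.07 FPKM.

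Among 20 other proteins that bind YAP1, WWTR1, LATS kinases or TEAD factors, 19 passed the filter (VGLL1 was not analysed here) and 12 (63.2%) were more than 2-fold higher at each dose, against 39.5% and 38.6% of all symbols, with medians of 1.27 and 1.29. Their transcripts had a median GC content of 49.2%, against 51.2% for all symbols. After removal of the GC trend 4 of the 19 were more than 2-fold higher at each dose, against 3.74% and 3.31% of all symbols. These were VGLL2, VGLL4, LIMD1 and AMOT, named here after their values were seen. The longest transcripts of VGLL4, LIMD1 and AMOT have a GC content of 57.7%, 48.2% and 46.4%, against medians of 65.1%, 54.6% and 53.1%. For VGLL2 it is 55.3% by either measure. Distances from the trend on that measure were not read out for these 4. At 50 ng/mL VGLL4 had a log2 fold change of 0.58. AMOTL2, whose longest transcript has 57.6%, had 0.96 and lay 1.14 above that trend, so VGLL4 is under 2-fold there. LIMD1 and AMOT had 1.42 and 1.39, and lie in GC content between YAP1 (43.5%) and CCN1 (50.3%). With 1.38 and 0.81, YAP1 and CCN1 lay 0.095 and 0.18 above it. LIMD1 and AMOT are thus under 2-fold too if the trend falls steadily between YAP1 and CCN1. The 3 largest fold changes were those of YWHAE, a 14-3-3 protein, with 30.3, 110 and 102 FPKM, BTRC, part of the ubiquitin ligase that acts on phosphorylated YAP1, with 0.95, 3.48 and 3.14 FPKM, and YWHAQ, also a 14-3-3 protein, with 28.8, 86.7 and 83.8 FPKM. The 3 smallest were those of WTIP, a LIM protein, with 2.81, 1.66 and 1.57 FPKM, TEAD2, and SFN, a 14-3-3 protein, with 5.07, 4.16 and 3.19 FPKM.

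Of 17 further genes widely used as YAP and TEAD targets, 16 passed the filter and 11 were more than 2-fold higher at each dose, with medians of 1.25 and 1.26. RBMS3 did not pass. The 11 are 68.8%, against 39.5% and 38.6% of all symbols. The median GC content of the transcripts of the 16 was 49.4%, against 51.2% for all symbols. After removal of the GC trend 3 of the 16 were, namely IGFBP3, GADD45A and AXL, the last pair named after their values were seen, against 3.74% and 3.31% of all symbols. Their longest transcripts have a GC content of 53.6%, 51.5% and 53.9%, in this order, against medians of 55.7%, 64.2% and 59.4%. Distances from the trend on that measure were not read out for these 3. CCN2, at the same 51.5% as GADD45A, lay 0.54 and 0.60 above that trend with log2 fold changes of 1.02 and 1.07. GADD45A had 1.16 and 1.03, so it is under 2-fold there. AXL, with 0.76 at 50 ng/mL, lies in GC content between CCN2 and AMOTL2 (57.6%). AMOTL2 lay 1.14 above that trend with 0.96, so AXL is under 2-fold too if the trend falls steadily between them. IGFBP3, a binding protein of insulin-like growth factors, was listed at 0.71, 2.74 and 2.46 FPKM, TGFB2, a TGF-β ligand, at 0.53, 2.02 and 1.95 FPKM, and PTPN14, a phosphatase that binds YAP1, at 1.42, 4.21 and 4.27 FPKM. These had the largest fold changes, and the smallest were those of ARHGEF17, with 16.7, 16.3 and 16.9 FPKM, FJX1, with 14.8, 15.1 and 15.4 FPKM, and NUAK2, a kinase, with 6.91, 8.53 and 7.16 FPKM.

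By distance between the pairs of log2 fold changes, the genes most like YAP1 among 3297 symbols of a mean level within 2-fold of its own were AREL1 at 0.0042, IMMT at 0.0051 and EIF2S1 at 0.014, and 133 symbols lay within 0.1. Those most like CCN2 among 777 symbols were RPL26 at 0.039, MT-TS2 at 0.047 and RPL23A at 0.068, with 11 within 0.1. These distances rest on 3 libraries, and the values of RPL26 and RPL23A, which have near-identical pseudogenes, are uncertain. So are those of MT-TS2, a mitochondrial tRNA listed here from poly(A) mRNA.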

How the data were processed

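Poly(A) mRNA of LX-2 cells was sequenced in paired-end mode on an Illumina HiSeq, 1 library per condition. Reads were mapped by the authors (HISAT2), and the deposited FPKM values have 2 decimals. The submitters' processing notes name HISAT2 2.0, StringTie 1.3.0 and Bowtie 0.12.2 without their roles, and the builds hg19 and mm8. The table names no build, and its coordinates overlapped those of GENCODE v29 (GRCh38) for 99.7% of 25531 genes found there. Read counts were not used, and depth is unknown.

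Rows sharing a symbol were summed, and log2(FPKM + 0.1) was compared for symbols averaging 0.5 FPKM or more, with 2-fold as the threshold, the criterion of the study's methods. The 10 genes and the lists were chosen with earlier results of these data known. Named from the lists were the 3 highest and 3 lowest fold changes, averaged over both doses, and all genes of lists of up to 6, and for YAP1 and CCN2 the 3 symbols closest in both fold changes. GC content and length were medians over each gene's listed GENCODE v29 transcripts, found for 99.6% of symbols, and trends were removed by loess with a span of 0.3. Results were recomputed under 13 other settings of scaling, filter, pseudocount, threshold, trend removal and dose labels, and under 2 more chosen after seeing the data. The software was Python 3.11.15, NumPy 2.4.6, pandas 2.3.3 and statsmodels 0.14.6, and the scripts were tested on simulated data.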

Additional observations from a re-analysis of the deposited data

How the results depend on the processing

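No paired analysis was possible because each condition has 1 library. Depth is unknown, so how firmly a low value such as that of WWTR1 or LATS2 is known cannot be stated. In the values as reported, 5 of the 10 genes exceeded vehicle more than 2-fold at each dose, and the number at 50 and 100 ng/mL was 2 and 1 with quantile normalization (9.19% and 8.42% of all symbols), 2 and 2 with the GC trend removed (3.74% and 3.31%), 2 and 2 with the GC and length trends both removed (3.94% and 3.48%), 2 and 1 with the trend on the GC content of the longest transcript removed (3.26% and 2.9%), 0 and 0 with the length trend removed (14% and 13.5%), 8 and 8 at a 1.5-fold threshold (51% and 50.8%) and 0 and 0 at 4-fold (1.79% and 1.5%). With the median ratio to vehicle set to 0 over genes that reach 1 FPKM in every library, a narrower set than the 12422 symbols, which lowered the log2 fold changes by 0.23 and 0.22, it was 4 and 3 (29.8% and 29.2%). With TPM it was 7 and 7 (44.5% and 43.1%), adding WWTR1 and AMOTL2. None of the 10 was more than 2-fold lower except with the length trend removed, where 1 was at each dose, TEAD3, with -1.06 and -1.04. None was past 2-fold between the rhFGF19 libraries under any alternative. The count stayed at 5 while the share of all symbols dropped to 17.6% and 16.7% with a pseudocount of 1 and to 27.6% and 27.3% with no filter. It also stayed at 5 with a pseudocount of 0.01, a mean of at least 1 FPKM, the highest row per symbol and exchanged doses, where the share lay between 37% and 41.4%. Changing the filter or the row could not alter it, since all 10 genes have 1 row and a mean of at least 1.97 FPKM. Exchanging the doses could not either, because the same 5 genes were past 2-fold at both.

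Among genes past 2-fold, signs changed when composition trends were removed. With the GC trend removed, the log2 fold change was -0.029 for TEAD1 at 50 ng/mL and -0.17 for ANKRD1 at 100 ng/mL. With the GC and length trends removed, it was -0.029 and -0.0057 for YAP1, -0.14 and -0.084 for TEAD1 and, at 100 ng/mL, -0.23 for ANKRD1. With the trend on the longest transcript's GC content removed, ANKRD1 had -0.10 at 100 ng/mL. Of the genes under 2-fold, WWTR1, TEAD3 and TEAD4 changed sign under at least 1 of these or quantile normalization, with values from -0.54 for WWTR1 to 0.33 for TEAD4. Removing a trend centres the fold changes, so these signs are relative to genes of similar GC content or length. LATS2 ranged from 0.58 to 1.73 and AMOTL2 from 0.45 to 1.296 over the alternatives, CCN2 from 0.30 to 1.297 and CCN1 from 0.13 to 1.08, so that the 4 kept their direction in all of them.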

Other observations

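Relatives and regulators of the targets differed among themselves. Of the other CCN family genes, CCN3 was listed at 0.54 FPKM in vehicle, 0.97 at the lower and 0.98 at the higher dose, and CCN5 at no more than 0.05, against more than 50 for CCN1 and CCN2 in every library. SRF, the transcription factor that binds the CArG box, was listed at 21.6, 21.1 and 20.5 FPKM, and its actin-regulated coactivator MRTFA at 5.59, 6.70 and 6.11 FPKM. MRTFB was listed at 0.34, 0.80 and 0.71 FPKM, log2 fold changes of 1.03 and 0.88.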
